A study of Mus musculus with 78 samples.

Results

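The mRNA response to tumor necrosis factor alpha (TNF-alpha) after 72 h was measured in 6 libraries of the 78 in the series, of which 39 measured mRNA. They were chosen by their column names in the deposited mRNA count table. The 3 treated libraries came from mouse tissue-engineered cartilage kept in 20 ng/mL TNF-alpha for 72 h, and the 3 control libraries from untreated cartilage of the same time. Per the series title the cells were chondrocytes derived from induced pluripotent stem cells, and the study asked how miRNAs and mRNAs interact when such cells meet inflammatory cytokines. The labels give no strain, genotype, cell clone or number of cultures, for treated and control cartilage alike. They do not say that the 3 libraries of a group (replicates a, b and c) came from separate cultures, so the p-values measure the spread between libraries, which may be technical. Further groups of 3 libraries served for comparison: TNF-alpha at the same dose for 24 h, its 24 h controls, and 1 ng/mL interleukin-1 beta (IL-1beta) for 72 h.

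TNF-alpha is a cytokine that binds the receptors TNFR1 and TNFR2. Through adaptor and kinase complexes it frees the transcription factor NF-kappaB from its inhibitors, activates the kinases that feed the AP-1 factors, and under some conditions starts cell death. NF-kappaB switches on chemokines, adhesion molecules and its own inhibitors. In joint cartilage TNF-alpha is known as a driver of matrix breakdown: it raises matrix-degrading proteases in chondrocytes and lowers the collagens and proteoglycans that give the tissue its stiffness.

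Of 18857 genes tested, 3348 rose with TNF-alpha at 72 h (17.8%) and 3442 fell (18.3%), at an adjusted p under 0.05 in edgeR's quasi-likelihood test, which makes 36% called in either direction. The groups did not overlap for 45.5% of the genes tested. By at least 2-fold, 886 rose (4.7%) and 662 fell (3.51%). Under library totals alone, without TMM scaling, the median change of all genes moved by 0.109 on the log2 scale and the share of called genes that rose was 67.1%, against 49.3% with TMM. The treated libraries held 21157070 to 33497248 counts and the controls 16241600 to 20545744. Mitochondrial transcripts took 0.568% to 0.61% of treated counts, against 0.384% to 0.443% of control counts. Replicate b of TNF-alpha at 72 h, the deepest library, had a count for 27837 genes, fewer than its group's other replicates, and stands apart for interferon-induced genes. The part of depth in that was not tested. The control at 0 h replicate b did not correlate with any library and was left out. With it in the fit 3330 genes were called, and named genes that lose their call there are listed beside their values. Values written with ± after a log2 fold change are standard errors from edgeR with 3 libraries in each group, and CPM are counts scaled to library size with TMM factors. In bulk tissue, fewer cells of a type and less RNA per cell cannot be told apart.

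The labelled tissue was checked against cartilage markers. Col2a1, the gene of type II collagen, took 2.02% to 2.71% of the counts with TNF-alpha, against 5.16% to 6.41% in the controls. The cartilage collagens and aggrecan were well above 0 in all 6 libraries. Summed over 13 leukocyte marker genes, the level was 57.3 to 81.4 CPM with TNF-alpha, against 35.0 to 42.4 CPM in the controls. Of these genes Ly6g, a neutrophil marker, had no count in the controls, and Ptprc, Itgam, Tyrobp and Cd3e were among those too low to be tested. The part of leukocytes in the rises described next was not tested. Endothelial markers summed to 5.25 to 6.69 CPM with TNF-alpha, against 3.51 to 4.67 CPM in the controls, with Cldn5 at 0 in all 6 libraries. Pluripotency markers summed to 2.69 to 3.58 CPM with TNF-alpha, against 2.59 to 2.79 CPM in the controls.

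**Figure D1:**
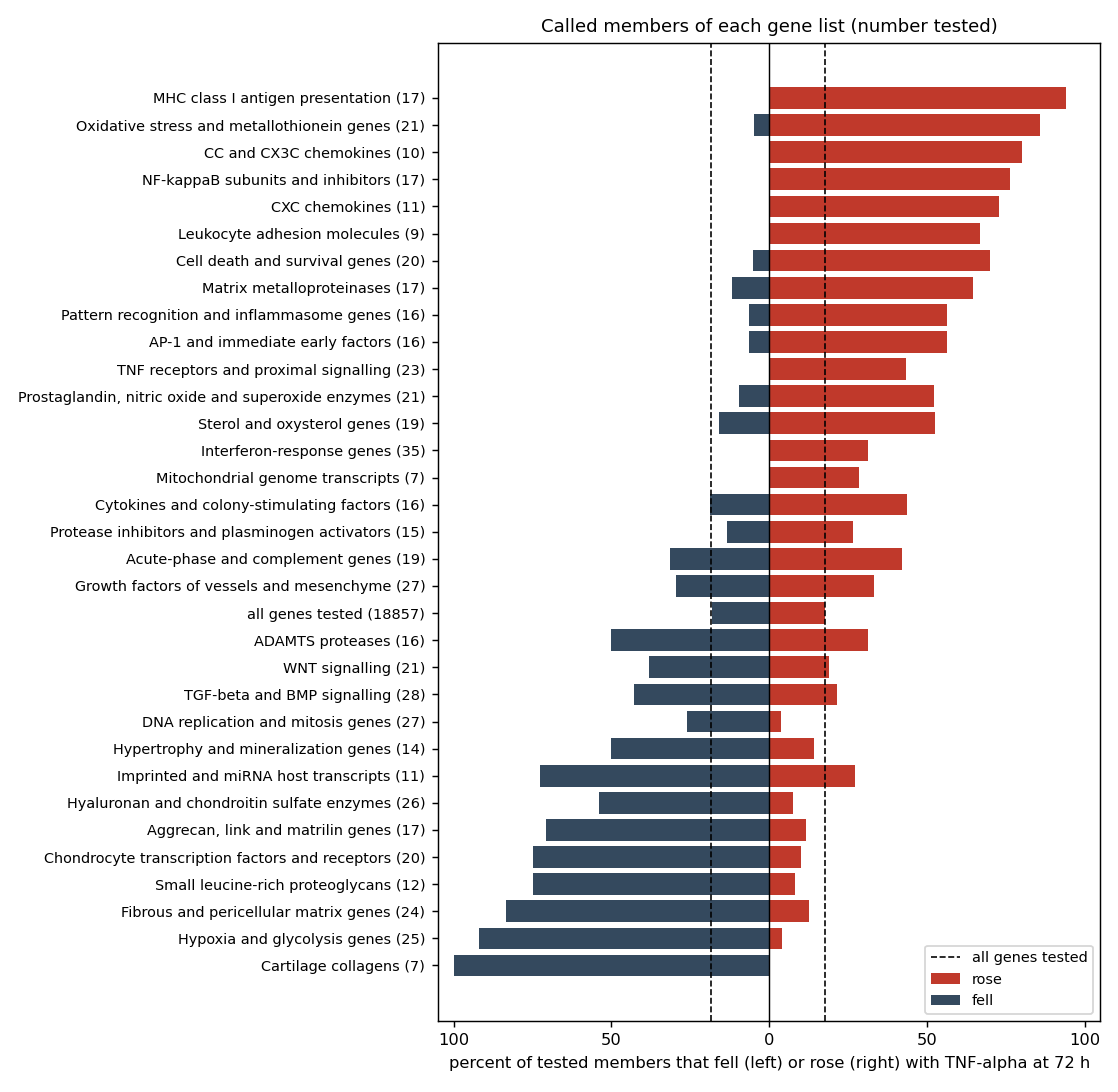
Percent of the tested members of each gene list that rose (right, red) or fell (left, dark) with TNF-alpha at 72 h, with the number tested in brackets. The dashed lines mark all genes tested (17.8% rose, 18.3% fell); 16 of 17 antigen presentation genes rose and 7 of 7 cartilage collagen genes fell.

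The feedback inhibitors of NF-kappaB were raised after 72 h of TNF-alpha. Among 17 tested genes of NF-kappaB subunits and inhibitors 13 rose and 0 fell (1 without control 72 h replicate b), with a median log2 fold change of 0.77, against -0.008 over all genes. Nfkbia, which encodes the inhibitor IkappaB-alpha, had 124, 119 and 122 CPM with TNF-alpha, against 27.6, 32.3 and 33.4 CPM in the controls (log2 fold change 1.97 ± 0.094, adjusted p = 2.69e-18). Tnfaip3, the gene of the deubiquitinase A20 that shuts the pathway off, had 42.9, 53.7 and 52.3 CPM with TNF-alpha, against 8.27, 8.65 and 9.04 CPM in the controls (2.52 ± 0.15, adjusted p = 4.16e-16). For both genes every treated library lay above every control. Tnip3, a partner of A20, had 23, 26.2 and 28.1 CPM with TNF-alpha, against 0.489, 0.329 and 0.31 CPM in the controls (6.06 ± 0.22, adjusted p = 1.69e-21). The 3 control libraries of Tnip3 were near the detection limit, and the groups did not overlap. Nfkbie (2.84 ± 0.19), which encodes IkappaB-epsilon, Tnfaip2 (2.34 ± 0.14), an early TNF-induced gene, and Relb (1.39 ± 0.095), a subunit of the alternative pathway, rose as well. The precursor subunit gene Nfkb1 had 107, 113 and 112 CPM with TNF-alpha, against 107, 108 and 113 CPM in the controls (0.019 ± 0.057, adjusted p = 0.84), and its groups overlapped. Bcl3 (0.55 ± 0.13, adjusted p = 0.00104) and Nfkbiz (0.38 ± 0.095, adjusted p = 0.0018), both atypical IkappaB proteins that act in the nucleus, rose by less than 2-fold. Nfkbiz did not pass with all 39 mRNA libraries in the fit.

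Promoter windows of RefSeq genes on GRCm38.p6, 250 bases before to 50 after the start of the gene, were searched on both strands for the kappaB consensus, the sequence that NF-kappaB binds. It was present in 8.46% of 32851 windows and in 9.55% of 27025 genes. Of 14 genes of the NF-kappaB list with a window 11 held it, and of 8 CXC chemokine genes 4 did, Cxcl1, Cxcl2, Cxcl3 and Cxcl10. Among the 12 genes named for the largest rises 9 had a window and 4 held it, Ccl20, Cxcl2, Cxcl3 and Madcam1. Genes that fell held it as well. Among the 12 named for the largest falls 8 had a window and 3 held it, Adra2c, Car9 and Mgarp. Of 5 cartilage collagen genes with a window 3 held it. A match describes the sequence and does not show that the factor binds there. The windows of Nfkbia (chr12:55492598-55492897, minus strand), Cxcl2 (chr5:90903649-90903948, plus strand), Madcam1 (chr10:79664309-79664608, plus strand) and Ccl20 (chr1:83116516-83116815, plus strand) are shown because an NF-kappaB inhibitor, a chemokine of each class and the gene with the largest fitted rise each carry the motif in the window. Each is written 5′ to 3′ in the direction of the gene, with the kappaB matches in capitals.
Nfkbia: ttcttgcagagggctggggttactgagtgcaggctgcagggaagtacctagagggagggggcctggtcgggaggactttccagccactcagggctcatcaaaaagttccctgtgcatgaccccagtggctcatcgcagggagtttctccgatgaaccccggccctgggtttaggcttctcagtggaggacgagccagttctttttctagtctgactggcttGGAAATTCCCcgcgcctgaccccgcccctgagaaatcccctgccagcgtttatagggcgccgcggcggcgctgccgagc
Cxcl2: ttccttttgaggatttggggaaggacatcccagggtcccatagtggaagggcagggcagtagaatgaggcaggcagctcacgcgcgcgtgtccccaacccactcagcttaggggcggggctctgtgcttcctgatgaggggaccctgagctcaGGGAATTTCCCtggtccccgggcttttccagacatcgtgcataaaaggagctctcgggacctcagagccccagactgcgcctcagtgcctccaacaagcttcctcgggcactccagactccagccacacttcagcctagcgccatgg
Madcam1: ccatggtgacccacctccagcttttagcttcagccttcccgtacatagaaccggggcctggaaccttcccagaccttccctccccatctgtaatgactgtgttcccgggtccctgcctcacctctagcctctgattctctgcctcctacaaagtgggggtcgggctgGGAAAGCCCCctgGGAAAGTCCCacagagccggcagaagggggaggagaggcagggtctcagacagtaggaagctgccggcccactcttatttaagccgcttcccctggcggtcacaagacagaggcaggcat
Ccl20: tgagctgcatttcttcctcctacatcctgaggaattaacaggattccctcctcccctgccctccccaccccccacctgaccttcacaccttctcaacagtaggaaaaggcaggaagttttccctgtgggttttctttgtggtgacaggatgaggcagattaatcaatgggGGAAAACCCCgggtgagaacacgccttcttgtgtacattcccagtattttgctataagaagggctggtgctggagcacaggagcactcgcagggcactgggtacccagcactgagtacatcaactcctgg

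Of the TNF receptors, ligands and adaptors 23 were tested, 10 rose and 0 fell. Under library totals alone 17 rose, and with all 39 mRNA libraries in the fit 6 did. Tnfrsf1b, the gene of the receptor TNFR2, had 82.1, 80.3 and 86.1 CPM with TNF-alpha, against 31.9, 35.6 and 32.2 CPM in the controls (1.32 ± 0.083, adjusted p = 5.14e-15). Tnfrsf1a, the gene of TNFR1, had 90.4, 90.9 and 89.2 CPM with TNF-alpha, against 84.1, 82.3 and 82.7 CPM in the controls (0.12 ± 0.066, adjusted p = 0.164) and passed only under library totals alone, at 0.23. The groups did not overlap for either receptor, by more than 2-fold for TNFR2 and by a few CPM for TNFR1. Traf1, an adaptor of TNFR2 induced by NF-kappaB, had 15.7, 16.8 and 14.8 CPM with TNF-alpha, against 0.489, 0.564 and 0.433 CPM in the controls (4.96 ± 0.22, adjusted p = 2.16e-19). Birc3, a ubiquitin ligase that holds back cell death at the receptor, rose by 1.6 ± 0.11. Cflar (0.49 ± 0.067), which blocks caspase 8, and Adam17 (0.55 ± 0.060), the protease that sheds TNF-alpha and its receptors from the cell surface, rose less. Tnf itself had 76 counts in the treated libraries and 2 in the controls, 26.1-fold after scaling (95% counting interval 6.97 to 219, counting error only). Its log2 fold change of 4.52 was 7.35 without control 72 h replicate c. Adam17 and Cflar did not pass with all 39 mRNA libraries in the fit.

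Among AP-1 and immediate early factors 9 of 16 tested genes rose and 1 fell, with a median of 0.61, and 0 fell with all 39 mRNA libraries in the fit. Junb had 184, 161 and 180.5 CPM with TNF-alpha, against 77.4, 84.9 and 85.4 CPM in the controls (1.08 ± 0.091, adjusted p = 6.25e-12). Fosl1 (1.61 ± 0.24), Fosl2 (0.68 ± 0.085), Atf3 (1.02 ± 0.12), Maff (0.88 ± 0.11) and Egr1 (0.64 ± 0.17) also rose. The 6 genes named here are AP-1 or immediate early transcription factors, and the largest adjusted p among them was 0.00353, for Egr1. Fosl2 did not pass with all 39 mRNA libraries in the fit.

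Chemokines held several of the steepest rises of the response. Of 10 CC and CX3C chemokine genes tested, which draw monocytes and lymphocytes, 8 rose and 0 fell. Ccl5, a T cell and monocyte attractant (GRCm38, chr11:83525778-83530518), had 242, 308 and 161 CPM with TNF-alpha, against 1.03, 0.517 and 0.99 CPM in the controls (8.15 ± 0.37, adjusted p = 5.96e-19). Ccl20, a ligand of CCR6, had 26.1, 28.6 and 12 CPM with TNF-alpha, against 0.245, 0.141 and 0.248 CPM in the controls (6.72 ± 0.55, adjusted p = 3.61e-12). In both genes the 3 controls were near or below 1 CPM and every treated library stood more than 10 CPM above them. Ccl2, the main monocyte attractant, had 794, 759.5 and 647 CPM with TNF-alpha, against 15.6, 16.7 and 14.4 CPM in the controls (5.55 ± 0.21, adjusted p = 8.02e-21). Ccl7, a related monocyte attractant, had 311, 316 and 288 CPM with TNF-alpha, against 18.4, 15.8 and 15 CPM in the controls (4.21 ± 0.18, adjusted p = 1.72e-19). Ccl8, a further monocyte chemokine, had 89.9, 87.6 and 53 CPM with TNF-alpha, against 5.18, 5.22 and 4.52 CPM in the controls (3.94 ± 0.24, adjusted p = 2.74e-15). None of these groups overlapped, and replicate c was the lowest treated library for Ccl5, Ccl20 and Ccl8. Cx3cl1, a membrane-bound chemokine, rose by 1.61 ± 0.25. Ccl12 (2.09 ± 0.47, adjusted p = 0.000598) rested partly on TNF-alpha 72 h replicate a, without which it was 1.46.

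Of 11 tested CXC chemokine genes 8 rose and 0 fell, with a median of 3.49. Cxcl3, a neutrophil attractant, had 25, 19.4 and 21.1 CPM with TNF-alpha, against 0.0978, 0.188 and 0.0619 CPM in the controls (7.43 ± 0.38, adjusted p = 1.84e-17). Cxcl2, with the same receptor, had 18.7, 18.1 and 17.6 CPM with TNF-alpha, against 0.0489, 0.0941 and 0.31 CPM in the controls (6.97 ± 0.37, adjusted p = 4.11e-17), or 7.85 without control 72 h replicate c. Cxcl1 had 127, 98.7 and 112 CPM with TNF-alpha, against 10.8, 9.88 and 9.16 CPM in the controls (3.49 ± 0.18, adjusted p = 2.84e-17). The treated libraries lay close together for Cxcl2 and Cxcl3, and the controls held few counts. Cxcl10, an interferon-induced attractant of T cells, had 4.74, 22.7 and 8.29 CPM with TNF-alpha, against 0.489, 0.611 and 0.124 CPM in the controls (4.82 ± 0.94, adjusted p = 8.97e-05), and 3.90 without TNF-alpha 72 h replicate b. Cxcl9, of the same class, had 2.18, 13 and 3.96 CPM with TNF-alpha, against 0.44, 0.329 and 0.619 CPM in the controls (3.89 ± 1.04, adjusted p = 0.00311) and lost its call without that library, at 2.76. For both interferon-induced chemokines replicate b was the highest treated library. Cxcl16 (1.54 ± 0.14) and Cxcl14 (1.93 ± 0.48) also rose.

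Several cytokine genes rose. Of 16 tested cytokine genes 7 rose and 3 fell, the falls a share (18.8%) near that of all genes (18.3%). Csf1, the growth factor of macrophages and osteoclast precursors, had 415, 560.2 and 537 CPM with TNF-alpha, against 41.9, 41.5 and 38.9 CPM in the controls (3.63 ± 0.12, adjusted p = 3.11e-22). Lif, a cytokine of the IL-6 family, had 26, 33.2 and 40.3 CPM with TNF-alpha, against 2.89, 2.96 and 2.6 CPM in the controls (3.55 ± 0.27, adjusted p = 4.88e-13). Il11, of the same family, had 13.9, 12.7 and 9.67 CPM with TNF-alpha, against 2.15, 5.6 and 6.19 CPM in the controls (1.4 ± 0.21, adjusted p = 2.01e-06). In these genes the treated libraries all lay above the controls. Il6 went the other way, with 0.555, 0.325 and 0.50 CPM with TNF-alpha, against 0.929, 0.753 and 1.61 CPM in the controls (-1.26 ± 0.49, adjusted p = 0.043); this call was lost in 7 of 13 alternatives. Il34 (1.08 ± 0.14), a second ligand of the CSF1 receptor, rose, and Tnfsf9 (-1.08 ± 0.19), a costimulatory ligand, fell. Tslp, an epithelial and stromal alarm cytokine, rose by 2.6 ± 0.45, and by 3.75 without control 72 h replicate b. Il1f9, the gene of IL-36 gamma, rose by 5.79 ± 0.54, and by 6.97 without the same control.

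**Figure D2:**
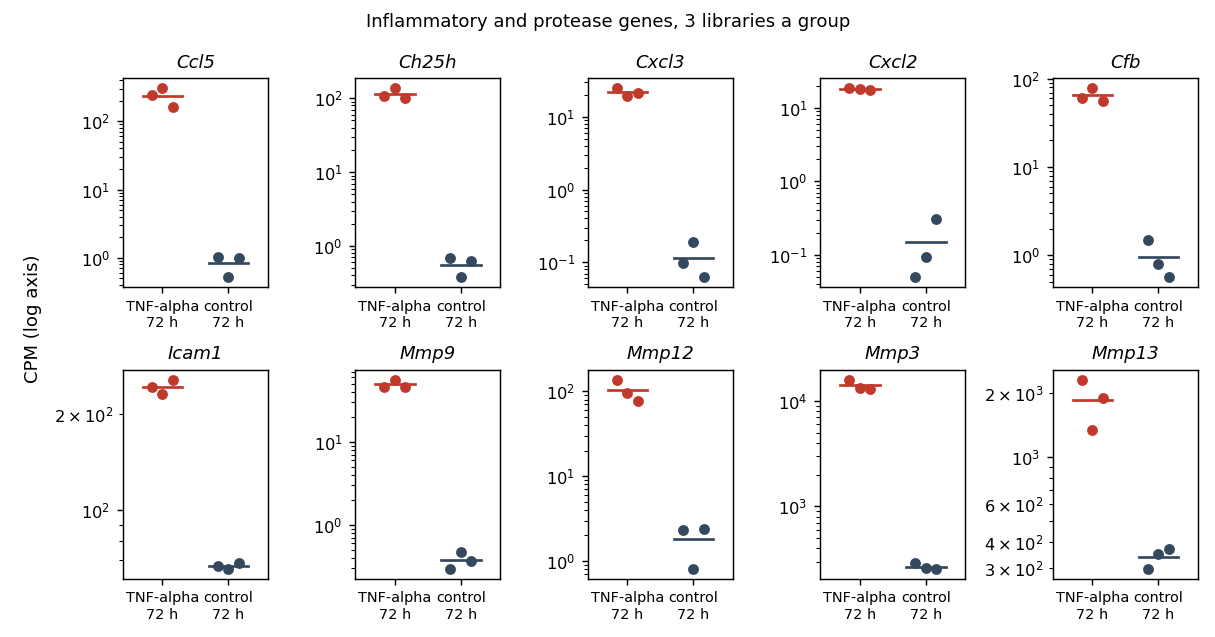
CPM of 10 inflammatory and protease genes in each library (points) and group means (lines) for TNF-alpha at 72 h (left, red) and control at 72 h (right, dark), each on its own log axis. In all 10 genes every treated library lies above every control library.

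Leukocyte adhesion molecules rose too, 6 of 9 tested with 0 lower. Madcam1, a ligand that lets lymphocytes bind vessel walls in the gut, had 6.75, 9.14 and 8.33 CPM with TNF-alpha, against 0, 0 and 0 CPM in the controls. The control group had no count, so against a floor of 3 counts for the whole group the treated level was at least 159-fold higher. Icam1, a ligand of leukocyte integrins, had 243, 230.4 and 255 CPM with TNF-alpha, against 66.8, 65.3 and 68.5 CPM in the controls (1.86 ± 0.099, adjusted p = 4.77e-17). Vcam1, the ligand of the integrin VLA-4, had 390.1, 521 and 489 CPM with TNF-alpha, against 160.4, 144 and 157 CPM in the controls (1.6 ± 0.15, adjusted p = 1.23e-10). The controls of all 3 genes were tightly grouped and below every treated library. Sele, the endothelial selectin gene, rose by 2.15 ± 0.45 from a low level of 0.18 ± 0.111 CPM in the controls (SD, n = 3). Mcam (0.47 ± 0.15, adjusted p = 0.0137) and F11r (0.58 ± 0.16, adjusted p = 0.00376) rose by less. Mcam lost its call without control 72 h replicate c or TNF-alpha 72 h replicate b, and F11r without TNF-alpha 72 h replicate c.

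Enzymes that make prostaglandin E2 and nitric oxide were higher. Among 21 tested genes of prostaglandin, nitric oxide and superoxide enzymes 11 rose and 2 fell. Ptges, the terminal prostaglandin E2 synthase, had 547, 480.1 and 490.2 CPM with TNF-alpha, against 47, 53.4 and 52.9 CPM in the controls (3.31 ± 0.097, adjusted p = 3.2e-24). Ptgs2, which encodes cyclooxygenase 2, had 128, 105.4 and 122 CPM with TNF-alpha, against 51.6, 70.0 and 71.9 CPM in the controls (0.88 ± 0.15, adjusted p = 1.15e-05). Ptgis, the prostacyclin synthase gene, had 66.2, 67.5 and 60.8 CPM with TNF-alpha, against 164, 151 and 161 CPM in the controls (-1.29 ± 0.082, adjusted p = 5.29e-15). The 3 genes thus showed both directions, with no overlap between groups in any of them. Nos2, the inducible nitric oxide synthase, had 88.9, 71.3 and 75.4 CPM with TNF-alpha, against 2.54, 2.73 and 3.34 CPM in the controls (4.78 ± 0.28, adjusted p = 4.5e-16). Around it the arginine supply genes Ass1 (2.39 ± 0.090) and Slc7a2 (1.95 ± 0.084), the arginase Arg2 (4.22 ± 0.28) and the cofactor enzyme Gch1 (2.06 ± 0.11) rose as well. Cybb, the catalytic subunit of the phagocyte NADPH oxidase, had 27.4, 78.5 and 42.7 CPM with TNF-alpha, against 0.538, 0.282 and 0.433 CPM in the controls (6.89 ± 0.51, adjusted p = 2.97e-13). Its treated libraries differed by almost 3-fold among themselves but all lay far above the controls. Nox4, an oxidase of mesenchymal cells, fell (-0.53 ± 0.093). Ptgs2 did not pass with all 39 mRNA libraries in the fit.

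Complement and acute-phase genes split, 8 higher and 6 lower of 19 tested. Without control 72 h replicate a, or with all 39 mRNA libraries in the fit, 3 were lower. Cfb, complement factor B of the alternative pathway, had 61.3, 79 and 56.4 CPM with TNF-alpha, against 1.47, 0.80 and 0.557 CPM in the controls (6.08 ± 0.31, adjusted p = 2.1e-17). C3, the central complement component, had 818, 1071 and 1083 CPM with TNF-alpha, against 269, 202 and 187 CPM in the controls (2.17 ± 0.15, adjusted p = 4.81e-14). Saa3, an acute-phase apolipoprotein, had 1798, 1204 and 701 CPM with TNF-alpha, against 34.7, 22.7 and 38.6 CPM in the controls (5.28 ± 0.38, adjusted p = 1.66e-13). Its treated libraries spread by more than 2-fold, and no control came near them. C2 (2.65 ± 0.24) and C1s1 (1.33 ± 0.14) rose. C4b (-0.56 ± 0.11), a component of the classical pathway, and Cfd, the adipose-derived factor D (-4.65 ± 0.69, and -7.01 without TNF-alpha 72 h replicate a), fell. The liver-type gene Saa1 had 2.61, 1.73 and 0.75 CPM with TNF-alpha, against 1.27, 0.80 and 0.929 CPM in the controls (0.75 ± 0.62, adjusted p = 0.377) and passed without the low-count filter. Its paralogue Saa2 had 0.641, 0.595 and 0.208 CPM with TNF-alpha, against 0.147, 0.376 and 0.929 CPM in the controls (0.14 ± 0.94, adjusted p = 0.933), or 0.88 without control 72 h replicate c. The groups of both overlapped, and reads may have been shared between them. C4b did not pass with all 39 mRNA libraries in the fit.

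Interferon-response genes were uneven between the treated libraries. Of 35 tested, 11 rose and 0 fell. The counts that rose were 7 without TNF-alpha 72 h replicate b, 18 with only the compared libraries in the fit and 22 without the low-count filter, where 2 fell. Gbp2, a guanylate-binding GTPase of host defence, had 101, 155 and 121 CPM with TNF-alpha, against 5.87, 4.75 and 5.32 CPM in the controls (4.56 ± 0.27, adjusted p = 5.63e-16). Irf1, a transcription factor of the interferon and TNF response, had 35.5, 45.1 and 44.2 CPM with TNF-alpha, against 10.2, 9.5 and 9.9 CPM in the controls (2.08 ± 0.17, adjusted p = 2.12e-12). Both were high in all 3 treated libraries. Ifit1, an antiviral RNA-binding protein, had 14.6, 58.1 and 20.5 CPM with TNF-alpha, against 7.19, 11.1 and 17.6 CPM in the controls (1.42 ± 0.74, adjusted p = 0.139), or 0.57 without replicate b. Oasl2, an antiviral protein of the same response, had 5.51, 23.2 and 7.12 CPM with TNF-alpha, against 2.15, 3.1 and 3.71 CPM in the controls (2.05 ± 0.65, adjusted p = 0.0122), and lost its call at 1.10 without replicate b. Gbp3 had 5.34, 20.5 and 7.79 CPM with TNF-alpha, against 1.12, 0.941 and 2.35 CPM in the controls (3.01 ± 0.85, adjusted p = 0.00496), and likewise lost its call, at 2.21. In these 3 genes replicate b held the highest value, more than 2-fold above the other treated libraries. Ifi47 (2.86 ± 0.53, adjusted p = 4.54e-05) kept its call without replicate b, at 2.26. Irf5 (2.69 ± 0.25), Gbp5 (4.64 ± 0.39) and Gbp6 (3.03 ± 0.39) also rose. Reads of the near-identical Gbp genes could have been split between them by the counting.

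The genes that present antigen on MHC class I rose together, 16 of 17 tested, 0 lower, with a median of 0.93. H2-K1, a class I heavy chain, had 777, 1168 and 1087 CPM with TNF-alpha, against 339, 258 and 305 CPM in the controls (1.751 ± 0.12, adjusted p = 4.84e-14). B2m, the light chain of all class I molecules, had 1412, 1767 and 1649.6 CPM with TNF-alpha, against 902, 757 and 645 CPM in the controls (1.07 ± 0.13, adjusted p = 2.12e-08). Psmb8, a subunit of the immunoproteasome that cuts the peptides, had 15.3, 28.1 and 22.2 CPM with TNF-alpha, against 4.25, 3.95 and 4.89 CPM in the controls (2.34 ± 0.25, adjusted p = 1.77e-09). In each the treated libraries lay above the controls, with Psmb8 showing the widest gap. Tapbp (1.19 ± 0.13), the loading factor tapasin, Psmb10 (1.71 ± 0.18), H2-Q4 (2.21 ± 0.21), H2-D1 (0.93 ± 0.14) and the peptide trimmer Erap1 (0.93 ± 0.10) rose. The exception was Tapbpl, with 21.2, 22.9 and 22.5 CPM with TNF-alpha, against 21, 22.4 and 22.7 CPM in the controls (0.013 ± 0.091, adjusted p = 0.936). Class I heavy chains are similar in sequence, so reads may have been shared among them. B2m and H2-D1 did not pass with all 39 mRNA libraries in the fit.

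Sensors of microbial products and the pyroptosis gene Gsdmd were raised, 9 of 16 tested with 1 lower. Clec4e, the lectin receptor Mincle, had 33.1, 31.5 and 24.6 CPM with TNF-alpha, against 0, 0 and 0.124 CPM in the controls. It had 2530 counts in the treated libraries and 2 in the controls, a ratio of 867 after scaling (95% counting interval 240 to 7167), and its log2 fold change of 9.53 was 12.36 without control 72 h replicate c. Tlr2, the receptor for bacterial lipopeptides, had 209.7, 249 and 223 CPM with TNF-alpha, against 44.9, 43.8 and 47 CPM in the controls (2.33 ± 0.095, adjusted p = 3.34e-20). Nod2, a cytosolic sensor, had 7.77, 6.98 and 6.96 CPM with TNF-alpha, against 1.76, 1.79 and 1.42 CPM in the controls (2.11 ± 0.19, adjusted p = 5.41e-11). The 3 sensors showed no overlap between groups. Gsdmd, whose product forms pores in pyroptosis, rose by 2.13 ± 0.21, and Cd14 by 0.93 ± 0.11. Nlrp3, the inflammasome sensor, rose by 5.24 ± 0.39, and by 6.10 without control 72 h replicate b. Nod1, with 27, 25.4 and 25.1 CPM with TNF-alpha, against 36.7, 30.6 and 33.6 CPM in the controls, fell (-0.38 ± 0.081, adjusted p = 0.000268). Nod1 did not pass with all 39 mRNA libraries in the fit.

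In the list of cell death and survival genes 14 of 20 tested rose and 1 fell. Under library totals alone or with all 39 libraries in the fit 0 fell. Bid, which links death receptors to mitochondria, had 39.9, 42.1 and 43.8 CPM with TNF-alpha, against 5.48, 6.4 and 6.19 CPM in the controls (2.8 ± 0.11, adjusted p = 6.83e-21). Fas, a death receptor, had 31.7, 47.1 and 41.2 CPM with TNF-alpha, against 14.9, 13.2 and 11.8 CPM in the controls (1.59 ± 0.16, adjusted p = 4.38e-10). Mlkl, the executor of necroptosis, had 20.5, 29.1 and 25.4 CPM with TNF-alpha, against 6.21, 8.47 and 8.3 CPM in the controls (1.72 ± 0.15, adjusted p = 1.8e-11). Mdm2, the ubiquitin ligase of p53, had 305, 338 and 394 CPM with TNF-alpha, against 126, 139.9 and 127 CPM in the controls (1.4 ± 0.071, adjusted p = 1.5e-17). All 4 parted the groups fully. The p53 gene Trp53 (0.86 ± 0.11) and the p53 targets Pmaip1 (1.72 ± 0.15), Cdkn1a (0.66 ± 0.069) and Bax (0.46 ± 0.10) rose as well. The survival gene Bcl2 had 23.6, 24.1 and 22.3 CPM with TNF-alpha, against 23.3, 27 and 25.1 CPM in the controls (-0.11 ± 0.11, adjusted p = 0.49). The groups overlapped for Bcl2. Bax and Cdkn1a did not pass with all 39 mRNA libraries in the fit.

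Outside these classes Ch25h was among the largest rises, and other genes of oxysterol and vitamin D metabolism rose as well. Ch25h makes 25-hydroxycholesterol, and had 107, 138 and 99.5 CPM with TNF-alpha, against 0.685, 0.376 and 0.619 CPM in the controls (7.69 ± 0.31, adjusted p = 2.82e-20). Cyp7b1, which breaks that oxysterol down, had 26.1, 26.8 and 23.7 CPM with TNF-alpha, against 7.97, 9.22 and 8.6 CPM in the controls (1.57 ± 0.15, adjusted p = 1.21e-10). Cyp27b1, the enzyme that activates vitamin D, had 16.1, 11.5 and 11.5 CPM with TNF-alpha, against 0.245, 0.141 and 0.186 CPM in the controls (6.05 ± 0.31, adjusted p = 2.43e-17). The 3 hydroxylase genes were higher in every treated library. U90926, a gene without a role given here, had 11.6, 6.6 and 4.21 CPM with TNF-alpha, against 0, 0 and 0 CPM in the controls, at least 141-fold higher on the same floor of 3 counts. Of 19 sterol and oxysterol genes 10 rose and 3 fell, the falls a share (15.8%) near that of all genes (18.3%). With all 39 mRNA libraries in the fit 4 rose and 0 fell. Under library totals alone, or without control 72 h replicate b, control 72 h replicate c or TNF-alpha 72 h replicate a, 1 fell. The cholesterol synthesis gene Fdft1 rose (0.67 ± 0.099), and Rora, a nuclear receptor bound by sterols, fell (-0.31 ± 0.067). Rora did not pass with all 39 mRNA libraries in the fit.

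Matrix metalloproteinases, the enzymes that cut collagen and other matrix proteins, rose in 11 of 17 tested genes and fell in 2. Mmp3, the stromelysin gene (GRCm38, chr9:7445822-7455975), had 15807, 13283 and 12898 CPM with TNF-alpha, against 289, 260.4 and 254 CPM in the controls (5.71 ± 0.15, adjusted p = 3.4e-25). Mmp13, the main collagenase of type II collagen, had 2306, 1345 and 1884 CPM with TNF-alpha, against 296, 349 and 371 CPM in the controls (2.45 ± 0.14, adjusted p = 6.29e-16). Mmp9, a gelatinase, had 45.7, 56.2 and 46.6 CPM with TNF-alpha, against 0.293, 0.47 and 0.371 CPM in the controls (7.01 ± 0.31, adjusted p = 2.94e-19). Mmp12, the macrophage elastase gene, had 137, 95.5 and 76 CPM with TNF-alpha, against 2.35, 0.80 and 2.35 CPM in the controls (5.84 ± 0.28, adjusted p = 3.12e-18). None of these groups overlapped, and replicate a was the highest treated library for Mmp3, Mmp12 and Mmp13. Mmp10, a second stromelysin, rose by 4.71 ± 0.27. Mmp1b, with 4.14, 4.22 and 2.62 CPM with TNF-alpha, against 0, 0 and 0 CPM in the controls, was at least 72.2-fold higher on the floor of 3 counts. Its paralogue Mmp1a rose by 4.57 ± 0.45, and reads of these related genes may have been split. Mmp8, the neutrophil collagenase, rose by 3.09 ± 0.58, and by 2.29 without TNF-alpha 72 h replicate a. Mmp2, the constitutive gelatinase, had 1666, 1626 and 1664 CPM with TNF-alpha, against 1665, 1364 and 1292 CPM in the controls (0.20 ± 0.095, adjusted p = 0.106), with overlapping groups, and passed in 3 alternatives.

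ADAMTS proteases went both ways, 5 higher and 8 lower of 16 tested, and 5 lower with all 39 mRNA libraries in the fit. Adamts5, an aggrecanase, had 24, 26 and 23 CPM with TNF-alpha, against 8.22, 6.16 and 4.7 CPM in the controls (1.92 ± 0.17, adjusted p = 3.71e-11). Adamts4, the other main aggrecanase, had 28.3, 31.1 and 25.9 CPM with TNF-alpha, against 17.6, 14.6 and 16.7 CPM in the controls (0.81 ± 0.19, adjusted p = 0.00105). Adamts7, which cuts the matrix protein COMP, had 24.6, 27.2 and 28.1 CPM with TNF-alpha, against 5.53, 3.86 and 4.83 CPM in the controls (2.49 ± 0.13, adjusted p = 6.74e-17). In these 3 genes every treated library exceeded every control. Adamts9 rose by 0.74 ± 0.13, and Adamts16 (-2.24 ± 0.30), Adamts17 (-1.0 ± 0.14), Adamts10 (-0.58 ± 0.075) and Adamts6 (-0.67 ± 0.081) fell. Of 15 inhibitor and plasminogen activator genes 4 rose and 2 fell, while 2 rose and 0 fell with all 39 libraries. In the main fit that was 26.7% and 13.3% of the list, against 17.8% and 18.3% of all genes. Timp1, a metalloproteinase inhibitor, had 412, 378 and 266 CPM with TNF-alpha, against 129, 139 and 138 CPM in the controls (1.38 ± 0.16, adjusted p = 6.45e-09). Timp3, which inhibits aggrecanases, had 900.2, 892 and 870.3 CPM with TNF-alpha, against 658, 970.2 and 818 CPM in the controls (0.12 ± 0.13, adjusted p = 0.511). Timp1 thus parted the groups, while those of Timp3 overlapped. The urokinase gene Plau (2.28 ± 0.13) and its receptor Plaur (1.1 ± 0.15) rose, and Htra1, a serine protease of cartilage, fell (-1.15 ± 0.091). Adamts6, Htra1 and Timp1 did not pass with all 39 mRNA libraries in the fit.

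Cartilage collagens fell as a class, 7 of 7 tested, with a median of -1.16; with all 39 mRNA libraries in the fit 0 passed at a median of -1.15. Col2a1, the main collagen of cartilage (GRCm38, chr15:97975602-98004724), had 18265, 21832 and 24183 CPM with TNF-alpha, against 49641, 49893 and 64449 CPM in the controls (-1.35 ± 0.17, adjusted p = 5.69e-08). Col11a2, a chain of the type XI collagen inside the fibril, had 1193, 1737 and 1706 CPM with TNF-alpha, against 3378, 3625 and 4729.5 CPM in the controls (-1.34 ± 0.18, adjusted p = 1.46e-07). Col9a1, a chain of the type IX collagen on its surface, had 988, 988 and 1073 CPM with TNF-alpha, against 2151, 2186 and 2828 CPM in the controls (-1.23 ± 0.14, adjusted p = 1.21e-08). The groups were apart for all 7 genes, which include Col11a1 (-1.09 ± 0.11), Col9a3 (-1.16 ± 0.17) and Col27a1 (-1.1 ± 0.15).

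Aggrecan and most of its partners fell as well. Of 17 genes of aggrecan, link proteins, matrilins and related matrix proteins 12 fell and 2 rose, while 4 fell and 1 rose with all 39 mRNA libraries in the fit. Acan, the gene of aggrecan, which holds water in cartilage, had 2920.0, 3394 and 2645 CPM with TNF-alpha, against 6155, 8161 and 8265 CPM in the controls (-1.33 ± 0.14, adjusted p = 6.29e-10). Hapln1, the link protein that ties aggrecan to hyaluronan, had 707, 694 and 528 CPM with TNF-alpha, against 1445, 1540.2 and 1497 CPM in the controls (-1.22 ± 0.11, adjusted p = 5.97e-11). Comp, a protein that binds collagen, had 9586, 10203 and 10076 CPM with TNF-alpha, against 11720.0, 14257 and 17133 CPM in the controls (-0.53 ± 0.12, adjusted p = 0.000877). The treated libraries were below all controls in each, by the least for Comp. Clec3a (-1.32 ± 0.14), Cilp2 (-1.33 ± 0.15), Matn1 (-1.11 ± 0.22), Matn4 (-0.92 ± 0.12) and Cnmd, the gene of the vessel inhibitor chondromodulin (-0.63 ± 0.12), fell. Matn3 had 409, 489.8 and 479 CPM with TNF-alpha, against 453, 677 and 648 CPM in the controls (-0.37 ± 0.16, adjusted p = 0.0695), with overlapping groups. Prg4, the gene of the joint lubricant lubricin, went the other way with 491, 396 and 327 CPM with TNF-alpha, against 98.5, 139.9 and 116 CPM in the controls (1.78 ± 0.18, adjusted p = 4.71e-10). Acan, Cilp2, Cnmd, Comp and Hapln1 did not pass with all 39 mRNA libraries in the fit.

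**Figure D3:**
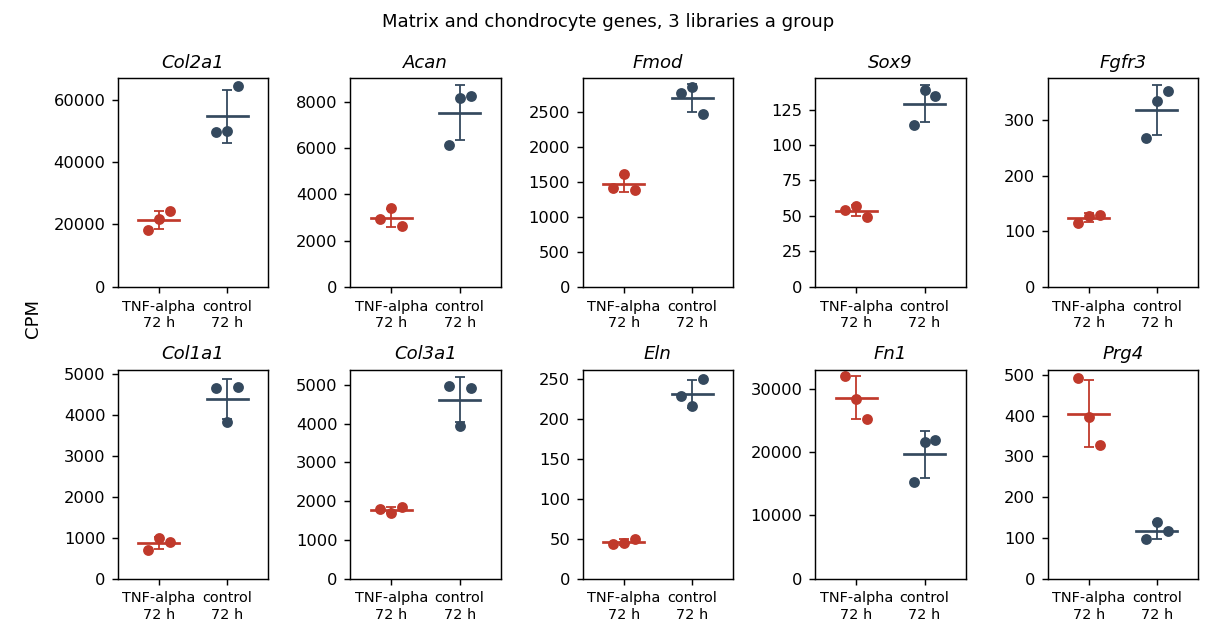
CPM of 10 matrix and chondrocyte genes in each library (points), with group mean and SD, for TNF-alpha at 72 h (left, red) and control at 72 h (right, dark), on linear axes from 0. Fn1 and Prg4 are higher and the other 8 genes lower in all treated libraries.

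Small leucine-rich proteoglycans, which bind and space collagen fibrils, fell in 9 of 12 tested genes, and in 3 with all 39 mRNA libraries in the fit, where 0 rose. Fmod, the gene of fibromodulin, had 1414, 1615 and 1389 CPM with TNF-alpha, against 2767, 2851 and 2466 CPM in the controls (-0.87 ± 0.11, adjusted p = 5.41e-08). Chad, the gene of chondroadherin, had 38.7, 45.8 and 57.6 CPM with TNF-alpha, against 116, 154 and 82.5 CPM in the controls (-1.32 ± 0.22, adjusted p = 1.07e-05). Lum, the gene of lumican, was the single member that rose, with 1876, 1404 and 1451 CPM with TNF-alpha, against 786, 929 and 926 CPM in the controls (0.84 ± 0.10, adjusted p = 4.59e-08). Dcn, the gene of decorin, had 1880.2, 1562 and 1661 CPM with TNF-alpha, against 1639, 1729 and 1826 CPM in the controls (-0.026 ± 0.13, adjusted p = 0.903), with overlapping groups. The class therefore held falls, 1 rise and genes without a call. Omd (-1.02 ± 0.24), Aspn (-1.0 ± 0.21), Chadl (-0.88 ± 0.16) and Bgn (-0.42 ± 0.12) fell. Bgn, Chadl, Fmod, Lum and Omd did not pass with all 39 mRNA libraries in the fit.

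Regulators of chondrocyte identity were lower, 15 of 20 tested, with 2 higher; 7 fell and 1 rose with all 39 libraries in the fit. Sox9, the transcription factor that establishes cartilage, had 54.3, 57 and 49.5 CPM with TNF-alpha, against 114, 139 and 135 CPM in the controls (-1.27 ± 0.10, adjusted p = 1.55e-12). Sox6, one of its partners, had 111, 116 and 107 CPM with TNF-alpha, against 199, 193 and 206 CPM in the controls (-0.84 ± 0.060, adjusted p = 1.19e-13). Fgfr3, a receptor that restrains growth of chondrocytes, had 115, 128 and 129.8 CPM with TNF-alpha, against 268, 335 and 352 CPM in the controls (-1.36 ± 0.13, adjusted p = 3.53e-10). Pth1r, the receptor of parathyroid hormone-related protein, had 87.9, 85 and 89 CPM with TNF-alpha, against 221, 214 and 272 CPM in the controls (-1.43 ± 0.099, adjusted p = 4.6e-14). For all 4 the groups were apart and the treated level was well below the control level. Gdf5, a growth factor of joint formation (-1.31 ± 0.11), Sox8 (-1.37 ± 0.15), Wwp2, the host gene of miR-140 (-1.02 ± 0.090), and Trps1 (-0.69 ± 0.060) fell. Barx2, a homeobox gene near the detection limit, had 0.214, 0.108 and 0.125 CPM with TNF-alpha, against 1.12, 1.51 and 1.3 CPM in the controls (-3.15 ± 0.36, adjusted p = 6.3e-09). Sox5 fell by a small amount (-0.28 ± 0.065, adjusted p = 0.000849), a call lost in 2 alternatives. Runx1 (0.34 ± 0.086) and Zfp219 (0.53 ± 0.099), a partner of Sox9, rose, and Runx2, the regulator of hypertrophy, had 19.6, 21.7 and 18.8 CPM with TNF-alpha, against 19.2, 20.5 and 16.5 CPM in the controls (0.096 ± 0.11, adjusted p = 0.558). Barx2, Runx1, Sox5, Sox6, Trps1 and Wwp2 did not pass with all 39 mRNA libraries in the fit.

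Of 14 genes of hypertrophy and mineralization, 7 fell and 2 rose, the rises a share (14.3%) near that of all genes (17.8%). The number that rose was 0 with all 39 libraries in the fit and 1 without control 72 h replicate a or TNF-alpha 72 h replicate a. Col10a1, the collagen of hypertrophic chondrocytes, had 389, 526 and 408 CPM with TNF-alpha, against 371, 874 and 917 CPM in the controls (-0.71 ± 0.34, adjusted p = 0.106). The controls spread by more than 2-fold and overlapped the treated libraries. Mef2c, a transcription factor that drives hypertrophy, had 57, 55.5 and 54.3 CPM with TNF-alpha, against 119, 110.0 and 138 CPM in the controls (-1.14 ± 0.082, adjusted p = 1.3e-13). Ibsp, the gene of bone sialoprotein, had 12.6, 11.9 and 19.8 CPM with TNF-alpha, against 25.2, 30.3 and 35.3 CPM in the controls (-1.04 ± 0.25, adjusted p = 0.000999). Spp1, the gene of osteopontin, had 23415, 20037 and 21979.5 CPM with TNF-alpha, against 13432, 14837 and 14699 CPM in the controls (0.61 ± 0.10, adjusted p = 1.09e-05). Mef2c and Ibsp were thus lower and Spp1 higher in every treated library. Dmp1 (-1.82 ± 0.22), Sp7 (-1.41 ± 0.25), Phex (-1.22 ± 0.21) and the alkaline phosphatase gene Alpl (-1.77 ± 0.44), all below 8 CPM in each control library, fell. Spp1 did not pass with all 39 mRNA libraries in the fit.

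Collagens and other proteins of fibrous tissue fell too, 20 of 24 tested, while 3 rose; with all 39 libraries in the fit 4 fell and 1 rose. Col1a1, a chain of type I collagen, had 703, 994 and 888 CPM with TNF-alpha, against 4659.9, 3820.1 and 4670.2 CPM in the controls (-2.35 ± 0.18, adjusted p = 8.53e-13). Col3a1, the type III chain, had 1799, 1700.3 and 1842 CPM with TNF-alpha, against 4982, 3944 and 4927 CPM in the controls (-1.37 ± 0.14, adjusted p = 3.61e-10). Eln, the gene of elastin, had 42.9, 44.3 and 49.7 CPM with TNF-alpha, against 228, 215 and 249.97 CPM in the controls (-2.34 ± 0.21, adjusted p = 2.37e-11). All 3 lay well below the controls in every treated library. Col1a2 (-1.37 ± 0.12), Thbs2 (-1.92 ± 0.091), Tnc (-1.33 ± 0.14), Fbn2 (-1.41 ± 0.097) and Postn (-0.97 ± 0.13) fell. Col5a3, a chain of type V collagen, had 373, 374 and 337 CPM with TNF-alpha, against 34.1, 29.5 and 29.7 CPM in the controls (3.54 ± 0.17, adjusted p = 5.73e-18). Fn1, the gene of fibronectin, had 32081, 28431 and 25264 CPM with TNF-alpha, against 15288, 21653 and 21969.8 CPM in the controls (0.54 ± 0.13, adjusted p = 0.00154). They were 2 of the 3 genes of this list that rose. Mfap4 (-3.36 ± 0.21) and Mfap5 (-3.18 ± 0.34), proteins of elastic microfibrils, fell. Col1a2, Col3a1, Fbn2, Fn1, Postn and Tnc did not pass with all 39 mRNA libraries in the fit.

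The hyaluronan and chondroitin sulfate list holds enzymes that build and sulfate these sugar chains, and also binding proteins and genes of hyaluronan breakdown. Of 26 tested 14 fell and 2 rose, and those that rose, Cemip and Cd44, build no chains. Of these 5 fell with all 39 mRNA libraries in the fit, and 4 rose under library totals alone. Slc26a2, the sulfate transporter of chondrocytes, had 195, 233 and 204 CPM with TNF-alpha, against 430.3, 512 and 507 CPM in the controls (-1.2 ± 0.12, adjusted p = 2.37e-10). Papss2, which activates sulfate for transfer, had 389, 398 and 422 CPM with TNF-alpha, against 839, 1126 and 948 CPM in the controls (-1.27 ± 0.13, adjusted p = 6.99e-10). Cemip, a protein that binds hyaluronan and drives its breakdown, had 207, 172 and 161 CPM with TNF-alpha, against 44.2, 63.6 and 67.2 CPM in the controls (1.63 ± 0.12, adjusted p = 4.16e-13). Slc26a2 and Papss2 thus fell and Cemip rose, with no overlap between groups. Cd44, a hyaluronan receptor, rose by 1.58 ± 0.083, and Has2, a hyaluronan synthase, fell (-0.79 ± 0.078). Tnfaip6, a TNF-induced hyaluronan-binding protein, had 101, 51 and 68.8 CPM with TNF-alpha, against 40.9, 71.8 and 51.7 CPM in the controls (0.42 ± 0.19, adjusted p = 0.0889), with overlapping groups, and passed in 4 alternatives. Papss2 and Slc26a2 did not pass with all 39 mRNA libraries in the fit.

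Genes of BMP ligands and antagonists changed at the mRNA level, and the activity of the pathway was not measured. Of 28 tested genes in the TGF-beta and BMP pathways, 12 were lowered and 6 raised. The share raised (21.4%) was near that of all genes (17.8%), and 42.9% were lowered, against 18.3% of all genes. Bmp2, a bone morphogenetic protein, had 158, 202 and 169 CPM with TNF-alpha, against 16.3, 24.4 and 27.8 CPM in the controls (2.96 ± 0.16, adjusted p = 3.88e-17). Grem1, a BMP antagonist, had 2053, 2409 and 2124 CPM with TNF-alpha, against 3926, 3844 and 4242 CPM in the controls (-0.87 ± 0.095, adjusted p = 2.92e-09). The ligand was thus higher and the antagonist lower in all treated libraries. Nog (-1.4 ± 0.16) and Chrd (-0.83 ± 0.095), further antagonists, Chrdl2 (-3.63 ± 0.29) and the ligand Gdf10 (-1.9 ± 0.15) fell. Smad7, an inhibitor of TGF-beta signals, rose (0.55 ± 0.14) and the signal carrier Smad3 fell (-0.36 ± 0.077). Tgfb1 had 17, 20.6 and 21.3 CPM with TNF-alpha, against 18.8, 23.8 and 20.2 CPM in the controls (-0.093 ± 0.14, adjusted p = 0.66), with overlapping groups. Grem1 did not pass with all 39 mRNA libraries in the fit.

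Of 21 WNT pathway genes 4 rose and 8 fell, among them secreted antagonists and a receptor. The share that rose was near that of all genes (17.8%), while the share that fell was above that of all genes (18.3%). Without TNF-alpha 72 h replicate b 2 rose. Frzb, a WNT antagonist of cartilage, had 393, 429 and 375 CPM with TNF-alpha, against 1298, 1238 and 1458 CPM in the controls (-1.74 ± 0.13, adjusted p = 4.88e-13). Lgr5, a receptor for R-spondins, had 9.44, 10.3 and 11.9 CPM with TNF-alpha, against 56, 44.9 and 39.6 CPM in the controls (-2.15 ± 0.15, adjusted p = 4.03e-14). Sfrp1 (-1.74 ± 0.25) and Dkk3 (-1.37 ± 0.17) fell, and Rspo3, an R-spondin, rose (1.06 ± 0.10). All treated libraries were below the controls for Frzb and Lgr5. Among 27 growth factor genes 9 rose and 8 fell, and 3 fell with all 39 mRNA libraries in the fit. Vegfc, which acts on lymphatic vessels, had 11.2, 19.7 and 14.2 CPM with TNF-alpha, against 0.929, 1.03 and 1.73 CPM in the controls (3.65 ± 0.25, adjusted p = 5.79e-14). Vegfa, which acts on blood vessels and is a hypoxia target, had 63.1, 51 and 63.1 CPM with TNF-alpha, against 129, 121 and 133 CPM in the controls (-1.12 ± 0.11, adjusted p = 1.23e-10). The 2 VEGF genes therefore moved in opposite directions. Apln, the gene of the vessel ligand apelin, fell (-2.75 ± 0.22). Fgf7 (2.05 ± 0.14) and Igfbp3 (2.67 ± 0.24) rose, and Hgf (-0.70 ± 0.15) and Igf1 (-0.44 ± 0.12) fell. Ptn, the gene of pleiotrophin, a growth factor of cartilage and nerve, had 1.58, 3.79 and 2.83 CPM with TNF-alpha, against 104.9, 57.2 and 63.3 CPM in the controls (-4.72 ± 0.52, adjusted p = 3.75e-09). Nell2, a secreted neural protein, fell further (-5.87 ± 0.49, and -6.71 without TNF-alpha 72 h replicate b). Igf1 did not pass with all 39 mRNA libraries in the fit.

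Genes of the oxidative stress response rose, 18 of 21 tested with 1 lower and a median of 1.55. The fall lost its call in 8 of 13 alternatives. Many are targets of the transcription factor NRF2. Slc7a11, the cystine importer for glutathione synthesis, had 339.5, 315 and 320.1 CPM with TNF-alpha, against 12.4, 14.7 and 12.3 CPM in the controls (4.62 ± 0.13, adjusted p = 5.09e-25). Hmox1, heme oxygenase, had 412, 459 and 493 CPM with TNF-alpha, against 82.7, 76.7 and 93.6 CPM in the controls (2.43 ± 0.11, adjusted p = 3.67e-19). Gclm, a subunit of the glutathione synthesis enzyme, had 68.6, 70.2 and 73.4 CPM with TNF-alpha, against 13.9, 16 and 15.6 CPM in the controls (2.22 ± 0.089, adjusted p = 2.57e-20). The treated libraries of these genes were several times above all controls. Srxn1 (1.8 ± 0.073), Txnrd1 (1.96 ± 0.069), Gsr (1.35 ± 0.081) and Nqo1 (0.74 ± 0.11), enzymes of redox balance, and the mitochondrial superoxide dismutase Sod2 (2.14 ± 0.090) rose. The metallothioneins Mt1 (0.78 ± 0.18) and Mt2 (1.55 ± 0.23) rose, and Sod1 had 76.3, 65.5 and 53.5 CPM with TNF-alpha, against 60.3, 61.9 and 62.3 CPM in the controls (0.083 ± 0.16, adjusted p = 0.738), with overlapping groups. The antioxidant response core TGACNNNGC, searched on both strands, was in 12.4% of all windows and 14.0% of genes. It was in 8 of 16 genes of this list with a window. In other lists the share with the core ran from 0 of 12 acute-phase and complement genes to 7 of 19 growth factor genes. The windows of Srxn1 (chr2:152105274-152105573, plus strand) and Gclm (chr3:122245307-122245606, plus strand) are shown as 2 redox genes that rose and hold it, with the match in capitals. Mt1 and Nqo1 did not pass with all 39 mRNA libraries in the fit.
Srxn1: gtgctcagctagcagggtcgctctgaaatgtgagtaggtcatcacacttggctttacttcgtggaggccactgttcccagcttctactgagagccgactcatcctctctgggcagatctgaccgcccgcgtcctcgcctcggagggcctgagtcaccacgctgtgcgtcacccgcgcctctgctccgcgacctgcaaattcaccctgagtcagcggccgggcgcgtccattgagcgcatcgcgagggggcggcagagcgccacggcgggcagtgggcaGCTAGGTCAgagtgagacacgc
Gclm: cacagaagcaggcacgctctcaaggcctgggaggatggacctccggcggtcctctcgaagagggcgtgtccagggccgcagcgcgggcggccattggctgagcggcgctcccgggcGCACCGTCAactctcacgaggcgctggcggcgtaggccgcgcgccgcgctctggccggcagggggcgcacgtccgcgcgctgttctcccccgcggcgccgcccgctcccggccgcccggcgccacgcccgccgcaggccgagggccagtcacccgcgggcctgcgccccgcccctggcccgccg

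Hypoxia and glycolysis genes fell together, 23 of 25 tested with 1 higher and a median of -1.07. With all 39 mRNA libraries in the fit 15 fell. Car9, a carbonic anhydrase that marks hypoxic cells, had 1.03, 1.79 and 1.67 CPM with TNF-alpha, against 50.4, 40.2 and 35.2 CPM in the controls (-4.77 ± 0.25, adjusted p = 3.29e-17). Ndufa4l2, a hypoxia-induced mitochondrial protein, had 39.2, 40.2 and 38.5 CPM with TNF-alpha, against 443, 429 and 367 CPM in the controls (-3.39 ± 0.15, adjusted p = 2.56e-19). Slc16a3, a lactate exporter, had 35.5, 28.8 and 34.1 CPM with TNF-alpha, against 177, 178 and 204 CPM in the controls (-2.51 ± 0.12, adjusted p = 8.76e-19). In these genes every treated library was far below the controls. Bnip3, a gene of mitochondrial removal, had 11, 10.1 and 9.62 CPM with TNF-alpha, against 49.6, 42 and 43.3 CPM in the controls (-2.14 ± 0.11, adjusted p = 6.09e-18). Pdk1, which diverts pyruvate from mitochondria, had 52, 54 and 59 CPM with TNF-alpha, against 159, 149 and 165 CPM in the controls (-1.52 ± 0.078, adjusted p = 1.75e-17). Pfkl, the phosphofructokinase gene, had 111, 112 and 112 CPM with TNF-alpha, against 366, 367 and 420.0 CPM in the controls (-1.78 ± 0.084, adjusted p = 2.01e-18). All 3 parted the groups without overlap. Mgarp (-3.82 ± 0.24) and Ppp1r3g (-3.29 ± 0.35, and -2.62 without TNF-alpha 72 h replicate b) fell further. The glycolysis genes Gapdh (-0.99 ± 0.083) and Pgk1 (-1.43 ± 0.12) fell. Both have many near-identical pseudogenes that may share their reads. Car12, another carbonic anhydrase, was the gene that rose (0.52 ± 0.13), and Pkm fell by a small amount (-0.27 ± 0.067, adjusted p = 0.00169), a call lost in 2 alternatives. Pkm did not pass with all 39 mRNA libraries in the fit.

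The hypoxia response core ACGTG, searched on both strands, was in 19.6% of all promoter windows and in 21.8% of genes. It was in 15 of 23 genes of the hypoxia and glycolysis list with a window. In other lists the share with the core ran from 0 of 12 acute-phase and complement genes to 5 of 11 sterol and oxysterol genes. The windows of Car9 (chr4:43506776-43507075, plus strand) and Bnip3 (chr7:138909457-138909756, minus strand) are shown because both genes fell and hold the core. Capitals mark the match, which in Bnip3 reads ACGTG on both strands with overlap.
Car9: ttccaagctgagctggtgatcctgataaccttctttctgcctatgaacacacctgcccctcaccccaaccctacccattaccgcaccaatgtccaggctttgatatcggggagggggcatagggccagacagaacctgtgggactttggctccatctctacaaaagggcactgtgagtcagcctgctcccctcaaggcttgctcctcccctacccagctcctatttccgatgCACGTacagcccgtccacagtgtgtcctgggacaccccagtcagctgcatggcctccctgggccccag
Bnip3: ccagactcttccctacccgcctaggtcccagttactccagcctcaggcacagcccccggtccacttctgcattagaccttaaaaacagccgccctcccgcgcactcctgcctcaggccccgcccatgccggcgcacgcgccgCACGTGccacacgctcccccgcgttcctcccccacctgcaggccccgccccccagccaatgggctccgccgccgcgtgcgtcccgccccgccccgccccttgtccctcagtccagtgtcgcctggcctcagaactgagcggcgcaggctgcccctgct

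Of 27 proliferation genes tested 7 fell and 1 rose, against 18.3% and 17.8% of all genes. The number that fell was 4 with all 39 mRNA libraries in the fit or without control 72 h replicate b. Mki67, a marker of cycling cells, had 16.5, 21 and 20.1 CPM with TNF-alpha, against 12.8, 24.4 and 19.3 CPM in the controls (0.035 ± 0.15, adjusted p = 0.891). Ccnd1, the gene of cyclin D1, had 114, 129.7 and 118 CPM with TNF-alpha, against 70.6, 78.3 and 77.4 CPM in the controls (0.68 ± 0.084, adjusted p = 3.66e-08). Mcm6, a helicase subunit, had 34, 33 and 32.5 CPM with TNF-alpha, against 43, 51.6 and 50.1 CPM in the controls (-0.54 ± 0.069, adjusted p = 8.71e-08). Mki67 overlapped between groups, Ccnd1 was higher and Mcm6 lower. Of 7 tested genes of the mitochondrial genome 2 rose, mt-Co1 (0.56 ± 0.13, adjusted p = 0.00105) and mt-Nd1 (0.63 ± 0.18, adjusted p = 0.00616), and the call of mt-Nd1 was lost in 2 alternatives. Among 11 imprinted and miRNA host transcripts 8 fell and 3 rose, while 3 fell and 0 rose with all 39 libraries. H19, an imprinted noncoding RNA, had 96.8, 105.3 and 102 CPM with TNF-alpha, against 296, 325 and 321 CPM in the controls (-1.63 ± 0.17, adjusted p = 7.84e-10). Rian, of the Dlk1-Dio3 locus, had 299, 307 and 314 CPM with TNF-alpha, against 610.4, 631 and 600.3 CPM in the controls (-1.0 ± 0.065, adjusted p = 9.0e-15). Mirg (-0.81 ± 0.094) and Meg3 (-0.75 ± 0.12) of that locus fell as well. Meg3, Rian, mt-Co1 and mt-Nd1 did not pass with all 39 mRNA libraries in the fit.

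Adipocyte genes were among the largest falls. Of 10 tested adipocyte markers 7 fell and 0 rose, and 4 fell with only the compared libraries in the fit. Cidec, a protein of fat droplets, had 0.171, 0 and 0 CPM with TNF-alpha, against 7.19, 2.4 and 4.33 CPM in the controls (-6.45 ± 0.88, adjusted p = 3.03e-07), and -9.68 without TNF-alpha 72 h replicate a. Adipoq, the hormone adiponectin, had 0.214, 0 and 0.0417 CPM with TNF-alpha, against 8.31, 3.76 and 5.32 CPM in the controls (-6.23 ± 0.75, adjusted p = 2.27e-08), and -8.04 without the same library. Lpl, a lipase, had 7.9, 4.76 and 8.42 CPM with TNF-alpha, against 24.2, 14.3 and 13.6 CPM in the controls (-1.34 ± 0.32, adjusted p = 0.00108). The treated libraries of Cidec and Adipoq were near or at 0. Plin1 (-2.32 ± 0.39) and Lep (-2.82 ± 0.76, and -6.0 without TNF-alpha 72 h replicate b) fell. Fabp4, which gave most of the list's counts, had 311, 215 and 248 CPM with TNF-alpha, against 345, 265 and 258 CPM in the controls (-0.17 ± 0.16, adjusted p = 0.459). The groups of Fabp4 overlapped, and the summed level of the 10 markers was 357 to 470 CPM with TNF-alpha, against 392.3 to 549 CPM in the controls. Adra2c, an adrenergic receptor gene, fell (-4.61 ± 0.45). Of the leukocyte markers tested Cd68 (1.35 ± 0.15) and Csf1r (1.36 ± 0.30) rose and Laptm5 (-1.96 ± 0.21) fell, and Adgre1, a macrophage marker, had 0.299, 0.0541 and 0.25 CPM with TNF-alpha, against 0.245, 0.517 and 0.248 CPM in the controls (-0.90 ± 0.68, adjusted p = 0.331). Summed neural markers were 62.8 to 79.7 CPM with TNF-alpha, against 107 to 128 CPM in the controls, and of 8 tested 3 rose, among them Stmn2 (0.81 ± 0.18) and Tubb3 (1.07 ± 0.24), and 1 fell, Map2 (-1.02 ± 0.11). Without TNF-alpha 72 h replicate a 2 fell. Summed muscle markers were 25.4 to 28.9 CPM with TNF-alpha, against 18.2 to 22.2 CPM in the controls, and of 4 tested Ttn rose (0.93 ± 0.091) and Des (-1.24 ± 0.21) and Mybpc1 (-1.15 ± 0.35) fell, the last not without control 72 h replicate a or with all 39 libraries in the fit. Epithelial and hepatic markers summed to 0.889 to 1.67 CPM with TNF-alpha, against 1.14 to 1.66 CPM in the controls.

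The 72 h effect was set against the effect of the same dose at 24 h by the interaction of treatment and time. Of 18857 genes 263 had a higher effect at 72 h (1.39%) and 448 a lower one (2.38%), 3.77% in all. Under library totals alone the share of higher ones was 67.4%, against 37.0% with TMM. At 24 h 2488 genes rose and 2235 fell. Called at both times were 3570 genes, 3535 of them in the same direction. The 35 that went in opposite directions all passed the test of the difference. Another 3220 genes were called at 72 h alone, and for 349 of them the difference passed. With all 39 libraries in the fit 26 genes were higher and 54 lower, and without TNF-alpha 24 h replicate b 151 were higher and 245 lower.

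For many cartilage matrix genes the effect was lower at 72 h than at 24 h. Lower here means a log2 fold change shifted toward a fall, not a weaker response. The median of the cartilage collagens was -1.16 at 72 h and -0.38 at 24 h. Among the cartilage collagens the effect was lower at 72 h for 6 of 7, among the aggrecan, link and matrilin genes for 11 of 17, and among the chondrocyte factors for 8 of 20. Acan had 5286, 8597 and 5984 CPM with TNF-alpha at 24 h, against 7356, 7354 and 6895 CPM in the 24 h controls (-0.12), and the difference of effects was -1.21 ± 0.19 (adjusted p = 0.000148). Frzb had 411, 605 and 416 CPM with TNF-alpha at 24 h, against 496, 516 and 439 CPM in its controls, and a difference of -1.72 ± 0.18 (adjusted p = 3.23e-07). Neither gene had parted its groups at 24 h, and TNF-alpha 24 h replicate b was the highest treated library in both. The part of that library in the list counts above was not tested. Fgfr3 (-1.07 ± 0.19), Fmod (-0.83 ± 0.15), Hapln1 (-0.92 ± 0.16), Mef2c (-0.75 ± 0.12), Eln (-1.2 ± 0.28), Nog (-1.51 ± 0.22) and Mfap4 (-1.94 ± 0.29) also had a lower effect at 72 h. The largest adjusted p among these 9 differences was 0.00876, for Eln. Of the 9 genes all but Nog and Mfap4 lost this call with all 39 libraries in the fit. The controls differed between times as well: every 72 h control of Frzb, Fmod, Mef2c and Nog lay above every 24 h control. Treated libraries of Acan and Eln were all lower at 72 h than at 24 h, and those of Frzb overlapped between times. For Col2a1 the difference was -0.77 ± 0.24 (adjusted p = 0.0592).

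**Figure D4:**
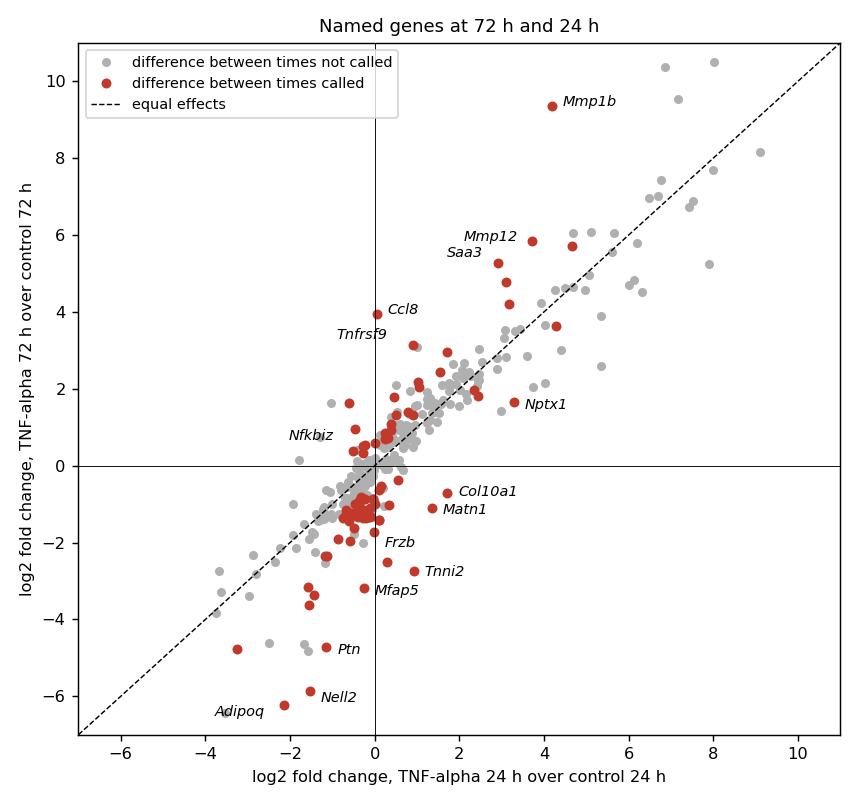
Log2 fold change of the named genes with TNF-alpha over the control of the same time, at 72 h (vertical axis) and 24 h (horizontal axis); red points passed the test of the difference and the dashed line marks equal effects. Ccl8 lies at 3.94 on the vertical and 0.049 on the horizontal axis, and Tnni2 at -2.74 and 0.92.

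Some genes changed direction or appeared late. Ccl8 had 14.3, 8.61 and 17.9 CPM with TNF-alpha at 24 h, against 13, 9.21 and 17.1 CPM in the 24 h controls, and the difference of effects was 3.89 ± 0.33 (adjusted p = 3.83e-09). So its groups overlapped at 24 h and were apart at 72 h. Tnni2, a fast skeletal troponin also known in cartilage, had 5.34, 5.09 and 5.87 CPM with TNF-alpha, against 33.8, 44.4 and 30.2 CPM in the controls at 72 h, and 7.75, 15.3 and 6.03 CPM with TNF-alpha, against 6.23, 4.95 and 4.26 CPM in the controls at 24 h (-3.66 ± 0.35, adjusted p = 4.37e-08). Matn1 rose by 1.35 at 24 h and fell at 72 h (-2.46 ± 0.34, adjusted p = 6.98e-05). Col10a1 had a difference of -2.42 ± 0.49 (adjusted p = 0.00217), with a rise of 1.71 at 24 h, and lost that call with all 39 libraries in the fit. For Tnni2 and Matn1 the 24 h control level was also far below the 72 h control level. Nell2 (-4.34 ± 0.66), Ptn (-3.58 ± 0.67) and Mfap5 (-2.93 ± 0.43) fell by more at 72 h. Without TNF-alpha 72 h replicate b the difference was -5.17 for Nell2, and without TNF-alpha 24 h replicate a it was -2.81 for Ptn.

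Some proteases and acute-phase genes had a higher effect at 72 h. This was so for 4 of 17 metalloproteinases, with 1 lower, and for 4 of 19 acute-phase and complement genes, with 1 lower. Of all genes tested 1.39% had a higher effect, and the 0 of 16 ADAMTS proteases was near that share. The difference of effects was 2.37 ± 0.47 for Saa3 (adjusted p = 0.0019), 2.12 ± 0.50 for Mmp12 (0.00938), 1.05 ± 0.18 for Mmp3 (0.000355) and 0.91 ± 0.19 for Mmp13 (0.00367). Mmp12 lost the call without control 24 h replicate a, at 1.5. Bmp2 (1.26 ± 0.21), Nos2 (1.69 ± 0.38), C3 (1.14 ± 0.20), Prg4 (1.31 ± 0.24), Fgf7 (1.0 ± 0.20) and Tnfrsf9, the costimulatory receptor 4-1BB (2.25 ± 0.40), had a higher effect at 72 h too. The largest adjusted p among these 6 was 0.0058, for Nos2. Of these 10 genes Saa3, Mmp3, Mmp13, Nos2, C3, Prg4 and Tnfrsf9 lost the call with all 39 libraries in the fit. Of the 17 NF-kappaB genes 2 had a higher effect at 72 h, Nfkbiz (0.88 ± 0.13) and Bcl3 (0.77 ± 0.18), which also lost that call with all 39 libraries. For Nos2, Prg4, Nfkbiz and Bcl3 the treated libraries overlapped between times, and every 72 h control lay below every 24 h control. Nptx1, a neuronal pentraxin, rose by 1.66 ± 0.21 at 72 h and by 3.28 at 24 h, a smaller effect at 72 h (-1.62 ± 0.32, adjusted p = 0.0019).

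Against IL-1beta at 72 h, 3856 genes were higher with TNF-alpha (20.4%) and 3656 lower (19.4%), 39.8% in all. Under library totals alone the share of higher ones was 65.1%, against 51.3% with TMM. The 2 cytokines differ in dose, 20 ng/mL of TNF-alpha and 1 ng/mL of IL-1beta, and share the 3 controls. Clec4e had 33.1, 31.5 and 24.6 CPM with TNF-alpha, against 0.301, 0.139 and 0.0429 CPM with IL-1beta (log2 ratio 7.61 ± 0.31, adjusted p = 2.4e-19), or 8.30 without IL-1beta 72 h replicate a. Csf1 had 415, 560.2 and 537 CPM with TNF-alpha, against 38.9, 38.7 and 44.5 CPM with IL-1beta (3.63 ± 0.12, adjusted p = 3.4e-22). Both genes were thus far higher with TNF-alpha, and Csf1 with IL-1beta overlapped the controls. Traf1 (4.82 ± 0.21), Mmp10 (4.55 ± 0.27), Mmp12 (3.63 ± 0.23), Lif (2.46 ± 0.24), Il11 (3.22 ± 0.26), Cyp27b1 (4.98 ± 0.27) and Nptx1 (5.03 ± 0.32) were higher with TNF-alpha. Cyp27b1 was 5.67 without IL-1beta 72 h replicate b.

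Saa3 had 1798, 1204 and 701 CPM with TNF-alpha, against 18368, 15647 and 13248 CPM with IL-1beta (-3.67 ± 0.35, adjusted p = 6.22e-11). Il6 had 0.555, 0.325 and 0.50 CPM with TNF-alpha, against 40.8, 35.8 and 32 CPM with IL-1beta (-6.34 ± 0.28, adjusted p = 1.6e-19). Vnn3, a vanin enzyme, had 0.299, 0.162 and 0.208 CPM with TNF-alpha, against 135, 125 and 121 CPM with IL-1beta (-9.18 ± 0.24, adjusted p = 3.0e-25). These 3 genes were lower with TNF-alpha in every library. Saa1 (-7.0 ± 0.36), Saa2 (-8.2 ± 0.42), Wfdc21 (-8.21 ± 0.38) and Olfm4 (-7.37 ± 0.38) shared that direction, and Olfm4 was -8.43 without TNF-alpha 72 h replicate b. Tnfsf14, the ligand LIGHT, had 1 count with TNF-alpha against 28 in the controls, and its log2 ratio to IL-1beta was -6.92 ± 0.75, or -8.55 without TNF-alpha 72 h replicate a. Of the acute-phase and complement list 15 of 19 genes were lower with TNF-alpha and 2 higher.

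**Figure D5:**
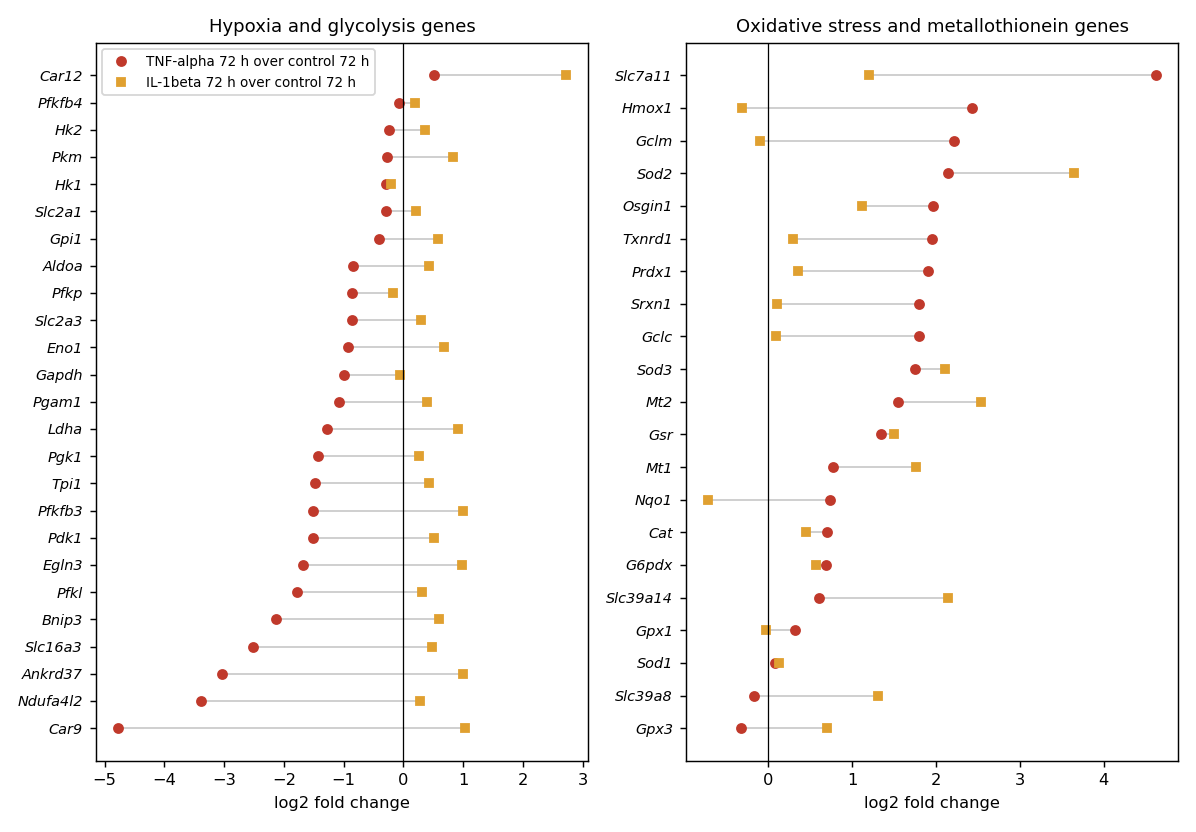
Log2 fold change over the 72 h controls of each tested gene of the hypoxia and glycolysis list (left panel) and of the oxidative stress and metallothionein list (right panel), with TNF-alpha (red circles) and IL-1beta (orange squares). Car9 lies at -4.77 with TNF-alpha and 1.04 with IL-1beta, and Hmox1 at 2.43 and -0.32.

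The hypoxia and glycolysis list set the cytokines apart. Of 25 genes 24 were lower with TNF-alpha than with IL-1beta and 0 higher. Car9 had 1.03, 1.79 and 1.67 CPM with TNF-alpha, against 91.5, 82.3 and 85.2 CPM with IL-1beta (-5.81 ± 0.25, adjusted p = 7.83e-20). Ndufa4l2 (-3.68 ± 0.15), Slc16a3 (-2.99 ± 0.12), Bnip3 (-2.73 ± 0.11) and Vegfa (-2.1 ± 0.11) were lower with TNF-alpha. Of 21 oxidative stress genes 11 were higher with TNF-alpha, among them Slc7a11 (3.42 ± 0.12), Hmox1 (2.75 ± 0.11) and Gclm (2.32 ± 0.089), and 7 lower, among them Sod2 (-1.5 ± 0.087) and Mt1 (-0.98 ± 0.18). All 7 cartilage collagens were higher with TNF-alpha than with IL-1beta. Acan had 2920.0, 3394 and 2645 CPM with TNF-alpha, against 940.0, 892 and 898 CPM with IL-1beta (1.71 ± 0.14, adjusted p = 1.15e-12). Matn3 had 409, 489.8 and 479 CPM with TNF-alpha, against 18.1, 16.9 and 24.4 CPM with IL-1beta (4.53 ± 0.19, adjusted p = 7.54e-20). Timp3 (2.86 ± 0.14) was higher with TNF-alpha too. Col1a1 (-2.09 ± 0.18), Col3a1 (-2.21 ± 0.14) and Lum (-1.14 ± 0.11) were lower. Acan, Lum, Mt1 and the collagens Col2a1, Col11a1, Col11a2, Col27a1 and Col9a3 lost this call with all 39 libraries in the fit. Adipoq (-6.52 ± 0.73) and Cidec (-6.43 ± 0.88) were lower with TNF-alpha, and stood at -8.32 and -9.66 without TNF-alpha 72 h replicate a.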

How the data were processed

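The mRNA table holds whole-number read counts per gene, deposited without normalization. Per the submitters' processing notes, Trimmomatic, cutadapt, STAR, featureCounts and the mm10 build were used; the sources used here name no version, annotation or strand setting, so reads of overlapping or antisense genes may be shared. A further 2199 lines without a gene name were left out, and of 52459 gene names 48108 matched a list of mouse symbols and 35095 matched RefSeq. Column names give treatment, time and replicate letter.

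Counts were fitted with edgeR 4.0.16 (R 4.3.3) in 1 quasi-likelihood model of 38 mRNA libraries in 13 groups, with TMM scaling factors of 0.864 to 1.12 and filterByExpr by group, which kept 18857 genes and 99.9% of the counts. Control at 0 h replicate b, with 220180 counts and a correlation of at most 0.141 with any other library, was left out. P-values were adjusted by Benjamini-Hochberg over all genes tested and called under 0.05. The TNF-alpha 72 h libraries were compared with their controls, with the TNF-alpha effect at 24 h by the interaction, and with IL-1beta at 72 h. The spread between libraries of a group beyond counting error was 8.26% (edgeR's common coefficient of variation), and may be technical. Within the groups compared here no replicates were copies of each other. Pairs across groups and the other libraries of the fit were not checked. The fit was run on simulated counts with known changes in a few genes, at a fixed spread. That run did not test the scaling or the rate of false calls. Intervals of count ratios are exact, at 95%, and cover counting error only.

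Genes were named as the 12 with the largest called change in each direction (6 for the other comparisons) at a mean of at least 1 CPM, up to 6 per list by p, and members that did not pass or moved the other way. Some genes that this rule selected are counted in their lists but not reported here by name. The members and lists were chosen with earlier results of these data known. Lists are described by counts and medians, with no set test. Alternatives were DESeq2 1.42.0, RLE factors, library totals alone, no low-count filter, a block for the replicate letter, all 39 libraries, only the libraries compared, and each library left out in turn. Promoter windows came from RefSeq on GRCm38.p6, searched with Python 3.11.15; miRNA counts were not used here.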

Additional observations from a re-analysis of the deposited data

Results flagged for a closer look

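For 4 of the genes described, the TNF-alpha effect was called in opposite directions at 72 h and 24 h and the difference itself passed edgeR's quasi-likelihood test. Tnni2, a troponin subunit, had a log2 fold change of -2.74 at 72 h and 0.92 at 24 h, a difference of -3.66 (adjusted p = 4.37e-08). Matn1, the gene of cartilage matrilin 1, stood at -1.11 at 72 h and 1.35 at 24 h, a difference of -2.46 (adjusted p = 6.98e-05). Nfkbiz, an atypical IkappaB protein, stood at 0.38 at 72 h and -0.51 at 24 h, a difference of 0.88 (adjusted p = 0.000122). Runx1, a transcription factor of the chondrocyte lineage, stood at 0.34 at 72 h and -0.28 at 24 h, a difference of 0.62 (adjusted p = 0.00186). With all 39 mRNA libraries in the fit the differences of Nfkbiz and Runx1 did not pass, while those of Tnni2 and Matn1 did. The cause of these reversals was not tested.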

How the results depend on the processing

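For TNF-alpha at 72 h against its controls, library totals alone gave 2248 genes that fell, and all 39 mRNA libraries in the fit gave 1825 that rose and 1505 that fell. Leaving out 1 library at a time gave 2759 to 3032 that rose and 2924 to 3196 that fell, and DESeq2 called 6613 genes. For the 72 h effect minus the 24 h effect, library totals alone gave 551 higher and 267 lower, no low-count filter gave 692 lower, all 39 libraries gave 26 higher and 54 lower, and leaving out 1 library at a time gave 151 to 288 higher and 245 to 462 lower. Against IL-1beta at 72 h, all 39 libraries gave 2305 higher and 2037 lower. The cause of the loss with all 39 libraries was not tested. Of 4095 alternative values for 316 named genes in the first comparison, 3977 kept direction and side of the threshold, 102 lost and 16 gained the call and 0 reversed. In the other comparisons 0 values of these genes reversed under the alternatives run.

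The replicate letters did not pair the libraries, with correlations of 0.018, -0.022 and 0.020 between same-letter deviations, which were no higher than those between different letters. With the replicate letter as a block 6704 genes were called in the first comparison, 6649 of them shared with the fit without it, 709 for the difference between times, and 7464 against IL-1beta.

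With 3 libraries in each group, genes at a few counts in 1 group, such as Clec4e and Tnf in the controls and Cidec with TNF-alpha, have log2 fold changes that move when a single library is left out. Depth limits what can be said of leukocyte and pluripotency markers, many of which had too few counts to be tested. CPM compare 1 gene between libraries and say nothing of absolute amounts.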
